A study of Rattus norvegicus with 6 samples.

Results

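Extracellular ATP and adenosine signalling was described here through 10 genes: the ATP-gated channels P2rx4 and P2rx7, the nucleotide receptors P2ry1 and P2ry6, the ectonucleotidases Entpd1 and Nt5e, the adenosine receptors Adora1, Adora2b and Adora3, and the ATP release channel Panx1. They were taken by name, with earlier results of these data known. Of the 10, 9 matched a probe and were tested among 22179 rows, of which 12963 carried a gene symbol. Adora3 was not matched to a probe, so its transcript level was not analysed here. Transcripts of rat brain were measured on 6 single-colour arrays, 1 per sample. The control group was brain tissue of 3 sham-operated rats. The other group was brain tissue, called peripheral in the labels, of 3 rats after bleeding within the brain (intracerebral hemorrhage, ICH). The series title places the injury around the hematoma. In the design text the replicates of the second group are termed transfected, a word absent from the sample labels, and the grouping followed the sample titles. Every sample carries day 1 under its age label, with nothing said of what the day is counted from, and strain, sex, the way the bleed was made and any pooling of animals are not given in the sources used here. Samples of a group are labelled biological replicates without a named animal, so the p-values measure the spread between these samples, which may in part be technical.

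ATP is kept inside cells and acts as a danger signal once it leaves them through channels such as pannexin or through broken membranes. Outside the cell it opens P2X channels and, with its breakdown products, activates P2Y receptors, and CD39 (Entpd1) and then CD73 (Nt5e) cut it to AMP and to adenosine. Adenosine in turn acts on G protein-coupled receptors, of which the A1 receptor (Adora1) lowers cyclic AMP and damps transmitter release, while the receptors of Adora2a and Adora2b raise it. In the brain several of these receptors are known from microglia, where P2Y12 guides processes toward ATP, P2Y6 drives uptake of debris and P2X7 leads to inflammasome activation.

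The RefSeq promoter table (build GRCr8) gives 1 start site per gene, and the 250 bases before it were read for 9 of the 10 genes, all but P2ry6. For P2rx4, Entpd1 and Adora1 all 250 bases, and for P2rx7 62 of them, lie inside the span of the gene in the RefSeq gene table of the same build, so their site is not the outermost start of the gene. The other 5 windows lie wholly outside. Among these, Nt5e is shown as the tested gene of lowest unadjusted p, at chr8:98150675-98150924 on the plus strand, and Adora2b as the only tested gene with a motif match, at chr10:47439462-47439711 on the plus strand. Capitals mark GAGGAA, letters that ETS factors such as PU.1 of myeloid cells bind.
Nt5e: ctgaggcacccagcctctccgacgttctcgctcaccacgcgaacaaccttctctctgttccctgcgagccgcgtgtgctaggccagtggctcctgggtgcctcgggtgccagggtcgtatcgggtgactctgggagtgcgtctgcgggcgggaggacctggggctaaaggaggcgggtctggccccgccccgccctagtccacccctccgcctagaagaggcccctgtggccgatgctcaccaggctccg
Adora2b: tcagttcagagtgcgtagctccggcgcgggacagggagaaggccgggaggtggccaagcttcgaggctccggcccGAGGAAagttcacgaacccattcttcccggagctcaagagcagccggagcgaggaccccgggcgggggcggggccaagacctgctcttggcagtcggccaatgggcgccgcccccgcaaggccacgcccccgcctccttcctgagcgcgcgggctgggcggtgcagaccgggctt
On both strands 3 motifs were searched. Besides GAGGAA these were TGACTCA, to which AP-1 binds, and the core of the hypoxia response element, ACGTG. Counted from the start site of the table, a match to GAGGAA lay at -175 to -170 in Adora2b and, on the other strand, at -92 to -87 in Adora3. In the windows that overlap their gene it lay at -235 to -230 in P2rx4 and at -198 to -193 in P2rx7. TGACTCA occurred in Adora3 only, at -170 to -164, and ACGTG in none of the 9. Of 33469 windows of the same length, 23.3% held GAGGAA, 4.05% TGACTCA and 16.6% ACGTG. The Nt5e and Adora2b windows were rich in G and C, at 68.8% with 20 CpG pairs and 71.2% with 26, beside a median of 51.2% over all windows.

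No gene of the set passed the test, and the 2 lowest p-values belonged to genes of adenosine. The A1 receptor Adora1 was higher on every ICH array than on every sham array, the CD73 gene Nt5e was higher on 2 of 3 ICH arrays than on all sham arrays, and the UDP receptor gene P2ry6 was higher on ICH 1 and ICH 2 but not on ICH 3. Of the 9 genes, 6 had a higher mean in ICH and 3 a lower one, beside 45.9% of all rows higher, and with spike-in centring, which shifted the median of all rows from -0.04 to 0.39, 9 of 9 were higher. Without ICH 1 the split was 4 higher and 5 lower. At an adjusted p under 0.05 (limma, Benjamini-Hochberg over 22179 rows) 0 of 9 were called, beside 0% of all rows. At an unadjusted p under 0.05, 2 of 9 were higher, beside 6.14% of all rows, and 0 of 9 lower, beside 8.58%. All ICH arrays lay above all sham arrays for 1 of 9, beside 11% of all rows, and below them for 0 of 9, beside 16.5%. Over all rows, 3263 had an unadjusted p under 0.05, 1361 higher and 1902 lower. The count of 2 came to 1 with the deposited values, 0 without sham 1 and 3 without ICH 3. The shares of all rows given above belong to the fit as reported, not to these alternatives. The 0 called rows came to 33 with spike-in centring and 36 without ICH 3, none of them a gene of the set.

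**Figure D1:**
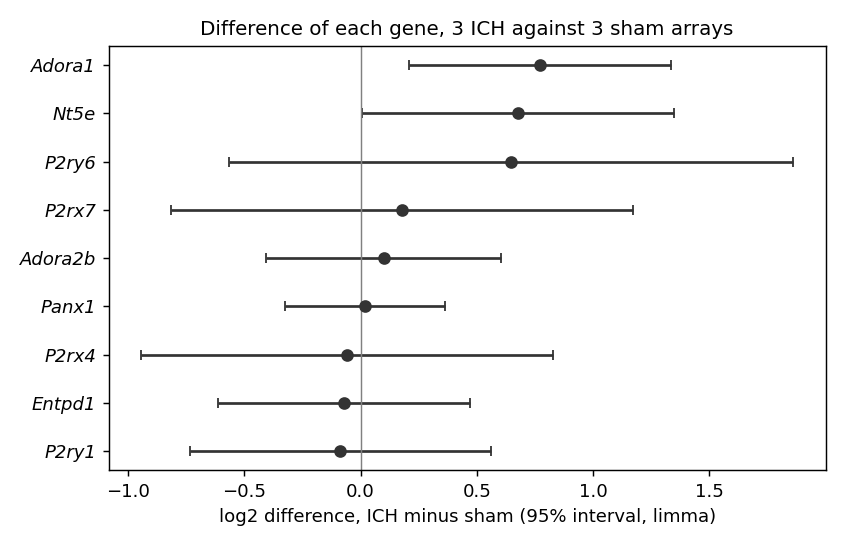
Difference in mean log2 signal, ICH minus sham, for the 9 genes (points) with the 95% interval from limma (bars), 3 arrays in each group. The intervals of Adora1 (0.21 to 1.33) and Nt5e lie above 0, and the other 7 cross it.

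Values are log2 signal relative to the 75th percentile of the array, so levels are compared between arrays for 1 probe and not between genes. P2rx4, a channel that ATP opens in microglia and neurons, stood at -1.84, -1.53 and -0.92 on sham 1 to 3 and at -0.83, -1.75 and -1.89 on ICH 1 to 3. Sham 3 and ICH 1 were the high arrays, and the groups overlapped. The means were -1.43 ± 0.47 (SD, n = 3) and -1.49 ± 0.57 (SD, n = 3), a difference of -0.06 ± 0.36 (SE) with a 95% interval of -0.94 to 0.83 (limma, adjusted p = 0.945, exact two-sided permutation p = 0.9). P2rx7, the channel behind large membrane pores and interleukin-1 release, stood at -7.31, -6.90 and -6.28 on the sham arrays and at -6.07, -6.52 and -7.37 on the ICH arrays. ICH 1 and sham 3 were again highest. The difference was 0.18 ± 0.41 (SE), or 1.13-fold, with an interval of -0.81 to 1.17 (limma, adjusted p = 0.839, exact permutation p = 0.8). The 2 genes have 1 other gene start between them in GRCr8, and their levels had r = 0.87 over the 6 arrays, a description of arrays that share a slide and a scan.

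P2rx7 was measured near the limit of the array. Its probe was printed on 10 spots, with mean intensities of 37.6 to 98.9 per array, which is 1.14 to 3.53 times the lowest spot of that array well above background. All 10 spots were well above background on 4 arrays, 5 of 10 were on sham 1 and 4 of 10 on ICH 3, so the probe did not count as well above background on ICH 3. The lowest such spot was at 41.4 on ICH 2 and 41.7 on ICH 3, and at 28.1 to 32.4 on the other arrays. The probe's mean intensity was 47.4 on ICH 3 and 37.6 on sham 1. The other 8 genes were well above background on all 6 arrays.

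**Figure D2:**
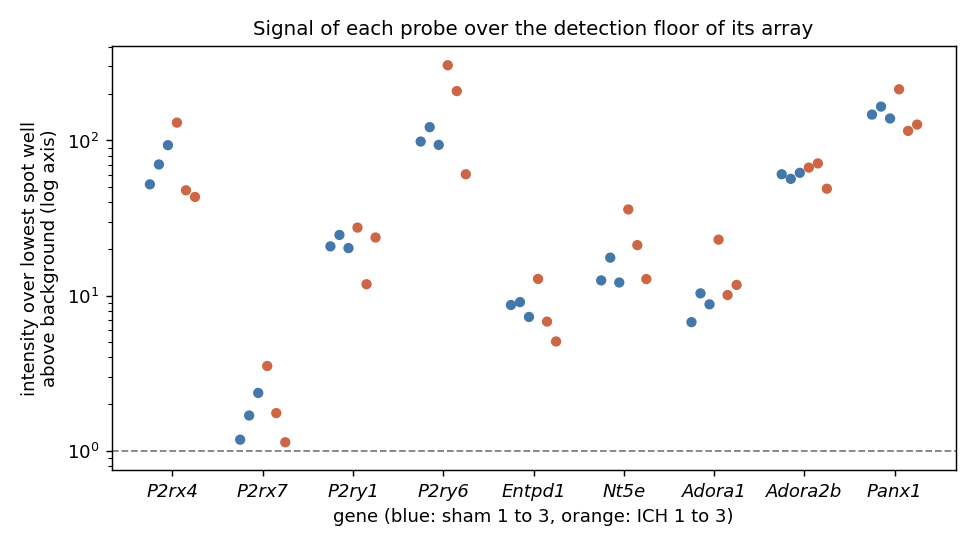
Intensity of each gene's probe on each array, as a multiple of the lowest spot well above background on that array (log axis, dashed line at 1), blue for sham and orange for ICH. P2rx7 lies between 1.14 and 3.53, close to the line, and the other genes lie further from it.

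Of the P2Y receptors, P2ry1, which ADP activates, stood at -3.17, -3.04 and -3.12 on the sham arrays and at -3.08, -3.76 and -2.76 on the ICH arrays. ICH 2 was the lowest and ICH 3 the highest of all 6 arrays. The difference was -0.09 ± 0.27 (SE), interval -0.73 to 0.56 (limma, adjusted p = 0.881, exact permutation p = 0.9). P2ry6, the UDP receptor, stood at -0.93, -0.73 and -0.92 on the sham arrays and at 0.40, 0.37 and -1.40 on ICH 1 to 3. ICH 1 and ICH 2 lay above all sham arrays and ICH 3 below all of them. The spread was 0.11 (SD, n = 3) in sham and 1.03 (SD, n = 3) in ICH. The difference was 0.65 ± 0.50 (SE), or 1.57-fold, with an interval of -0.56 to 1.86 (limma, adjusted p = 0.536, exact permutation p = 0.4). Without ICH 3 it was 1.24 (limma, adjusted p = 0.0734), and without ICH 1 or ICH 2 it was 0.34 or 0.35.

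Of the ectonucleotidases, Entpd1, which cuts ATP and ADP to AMP, stood at -4.42, -4.48 and -4.60 on the sham arrays and at -4.18, -4.56 and -4.98 on the ICH arrays. ICH 1 was the highest and ICH 3 the lowest of the 6. The difference was -0.07 ± 0.22 (SE), interval -0.61 to 0.47 (limma, adjusted p = 0.881, exact permutation p = 0.8). Nt5e, which makes adenosine from AMP, stood at -3.90, -3.52 and -3.86 on the sham arrays and at -2.69, -2.92 and -3.65 on the ICH arrays. ICH 1 and ICH 2 were higher than every sham array, and ICH 3 lay between sham 2 and the other sham arrays. The difference was 0.68 ± 0.28 (SE), or 1.60-fold, with an unadjusted p of 0.049 (limma, adjusted p = 0.339, exact permutation p = 0.2). Leaving out ICH 1, ICH 2 or ICH 3 gave 0.48, 0.59 and 0.96.

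Of the adenosine receptors, Adora1 stood at -4.79, -4.29 and -4.33 on the sham arrays and at -3.34, -3.99 and -3.77 on the ICH arrays. All 3 ICH arrays were higher than all 3 sham arrays, the only gene of the 9 for which the groups did not overlap. The means were -4.47 ± 0.28 (SD, n = 3) and -3.70 ± 0.33 (SD, n = 3), a difference of 0.77 ± 0.23 (SE), or 1.71-fold, with an unadjusted p of 0.0154 (limma, adjusted p = 0.301). The exact two-sided permutation p was 0.1, the smallest that 3 against 3 allows. Leaving out ICH 1, ICH 2 or ICH 3 gave 0.59, 0.92 and 0.81. Adora2b, a receptor that responds to high adenosine, stood at -1.63, -1.84 and -1.51 on the sham arrays and at -1.79, -1.17 and -1.71 on the ICH arrays, from a single spot. ICH 2 was high and the other ICH arrays lay within the sham range. The difference was 0.10 ± 0.21 (SE), interval -0.41 to 0.61 (limma, adjusted p = 0.824, exact permutation p = 0.8).

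Panx1, the release channel, had the smallest spread over the 6 arrays of the 9 genes. It stood at -0.35, -0.29 and -0.35 on the sham arrays and at -0.12, -0.48 and -0.34 on the ICH arrays, with ICH 1 above and ICH 2 below the sham range. The difference was 0.02 ± 0.14 (SE), with an interval of -0.32 to 0.36 (limma, adjusted p = 0.954, exact permutation p = 0.8). Over the 9 genes the median difference was 0.10, beside -0.04 over all rows. It moved widely with the arrays used, to -0.078 without ICH 1, 0.0098 without sham 1, 0.038 without sham 2, 0.20 without sham 3 and 0.18 without ICH 3, and to 0.60 with the slide row as a block.

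**Figure D3:**
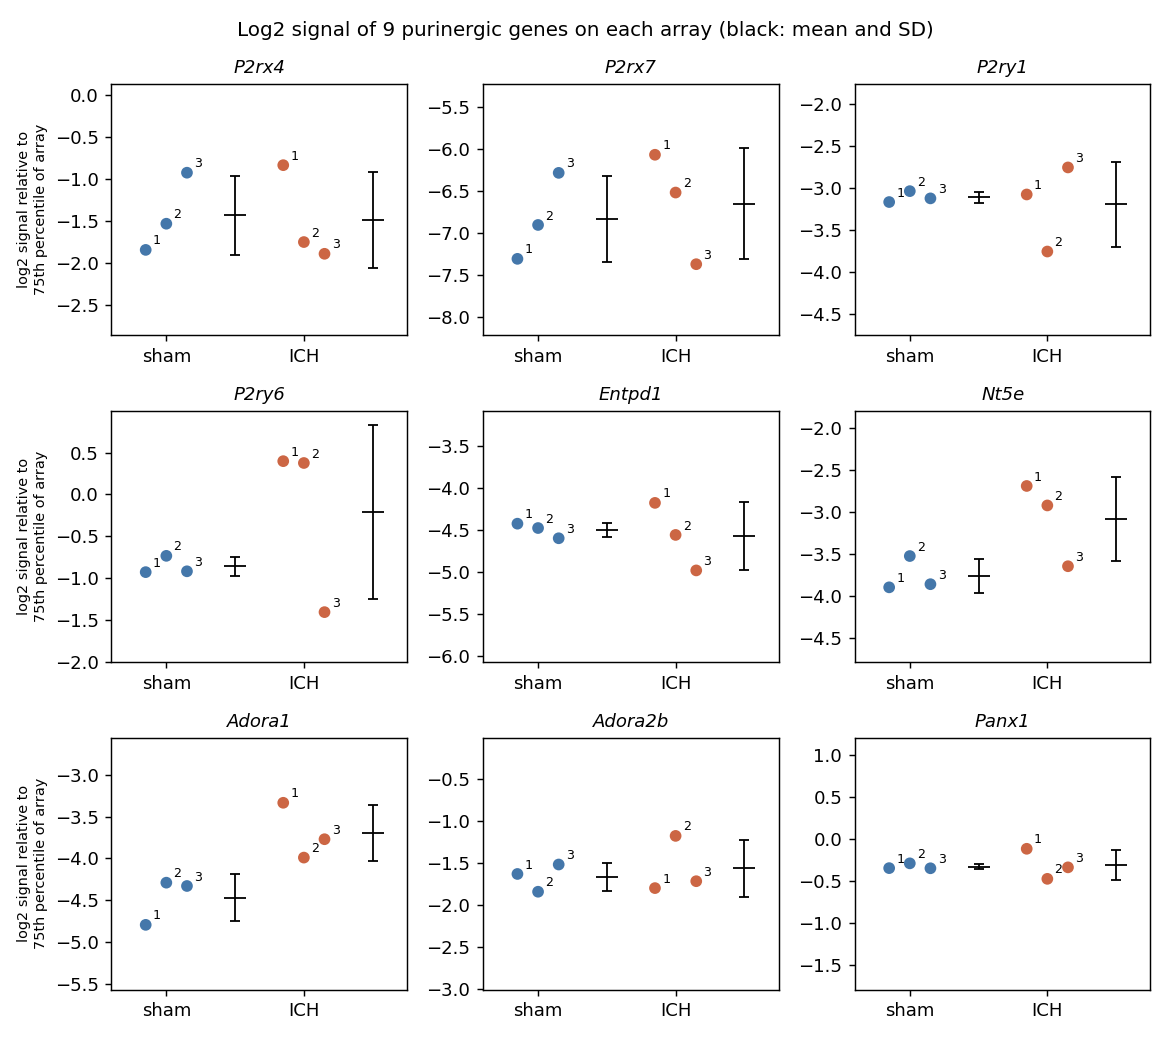
Log2 signal relative to the 75th percentile of the array for the 9 genes on sham 1 to 3 (blue) and ICH 1 to 3 (orange), numbered by replicate, with mean and SD in black. The vertical axes have the same span in every panel and are centred on the values of each gene. Adora1 is the only gene whose ICH arrays all lie above its sham arrays, and ICH 3 stands below all sham arrays for P2ry6.

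The other receptors for nucleotides and adenosine were mostly lower, and their median stayed below that of all rows with spike-in centring. Of 12 listed, 11 were tested (P2ry10 did not pass the filter on dim probes). Of these, 1 was higher and 10 lower in ICH, beside 45.9% of all rows higher, with 0 called and a median of -0.36. At an unadjusted p under 0.05, 2 were lower, beside 8.58% of all rows. P2ry12, the ADP receptor of resting microglia, stood at 0.17, 0.09 and -0.25 relative to the sham mean on sham 1 to 3 and at -0.86, -1.74 and -0.40 on ICH 1 to 3. All ICH arrays were below all sham arrays, by a mean of -1.00 ± 0.35 (SE; limma, adjusted p = 0.311). P2ry13, another ADP receptor, was lower on all ICH arrays too, by -0.39 ± 0.13 (SE; limma, adjusted p = 0.304). These were the 2 of 11 with all ICH arrays below all sham arrays, beside 16.5% of all rows. P2ry2, which ATP and UTP activate, was the 1 higher gene, at 1.10, 1.33 and -0.17 on ICH 1 to 3, with ICH 3 low as for P2ry6 (0.75 ± 0.41 (SE); limma, adjusted p = 0.418). Adora2a, the adenosine receptor of striatal neurons, named after its values were seen, stood at 0.44, 0.69 and -1.13 on the sham arrays and at -0.96, -0.23 and -1.69 on the ICH arrays (-0.96 ± 0.58 (SE); limma, adjusted p = 0.455). Adora1 and Adora2a thus had differences of opposite sign, which was not tested as a difference. Spike-in centring, which also raised the median of all rows, gave 7 higher and 4 lower. The list's median less that of all rows was -0.32 with it and without it. Leaving out ICH 2 gave 4 higher and 7 lower with a median of -0.12. The median was -0.22 without sham 2, and the 2 genes at an unadjusted p under 0.05 came to 1 without sham 1 or ICH 1 and to 0 without sham 2.

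The remaining enzymes of nucleotide breakdown were lower in 8 and higher in 4 of the 12 tested of 15 listed, with 0 called and a median of -0.14. Over all rows 45.9% were higher. At an unadjusted p under 0.05, 2 of the 12 were lower, beside 8.58% of all rows. Entpd4 and Pnp had no matched probe and Entpd8 did not pass the filter. Entpd3, a neuronal ecto-ATPase, was lower by -0.61 ± 0.18 (SE; limma, adjusted p = 0.301), at -0.82, -0.38 and -0.62 on ICH 1 to 3. Alpl, an alkaline phosphatase that also cuts AMP, was lower by -0.62 ± 0.19 (SE; limma, adjusted p = 0.301), with all 3 ICH arrays below all sham arrays for both. Of the 12, 4 had all ICH arrays below all sham arrays, beside 16.5% of all rows. Ada, which removes adenosine by turning it into inosine, stood at 1.12, 0.41 and 0.19 on ICH 1 to 3 against -0.32, 0.05 and 0.27 on the sham arrays (0.57 ± 0.29 (SE); limma, adjusted p = 0.398). So Nt5e and Ada, which make and remove adenosine, both had higher ICH means, and neither was called. With spike-in centring, which also raised the median of all rows, 9 of the 12 were higher and 3 lower. The list's median less that of all rows was -0.10 with it and without it. The median was -0.09 without sham 1 and -0.095 without ICH 2, and the 2 genes at an unadjusted p under 0.05 came to 1 without sham 1 and 0 without sham 2.

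Among genes of ATP release and nucleoside transport, 1 was higher and 8 lower of 9 tested of 10 listed (Panx3 did not pass the filter). Over all rows 45.9% were higher. The list had 0 called and a median of -0.30. Slc28a3, a concentrative nucleoside transporter, was lower on all ICH arrays, by -0.94 ± 0.20 (SE; limma, adjusted p = 0.282), though well above background on 3 sham and 2 ICH arrays only. It was the 1 of 9 with all ICH arrays below all sham arrays, beside 16.5% of all rows. The equilibrative transporter Slc29a1 differed by -0.63 ± 0.32 (SE; limma, adjusted p = 0.402) and the vesicular ATP transporter Slc17a9 by -0.30 ± 0.22 (SE; limma, adjusted p = 0.515). Spike-in centring, which also raised the median of all rows, gave 7 higher and 2 lower. The list's median less that of all rows was -0.26 with it and without it. Leaving out ICH 2 gave 4 higher and 5 lower with a median of -0.15. Without sham 1 the median was -0.14.

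Of 9 inflammasome genes listed with P2X7, 8 were tested (Gsdmd had no matched probe), and whether they respond to P2X7 was not tested. Of the 8, 7 were higher and 1 lower, beside 45.9% of all rows higher, with 0 called and a median of 0.58. At an unadjusted p under 0.05, 1 was higher, beside 6.14% of all rows. The list's median stood at -0.35, 0.19 and 0.05 relative to the sham mean on sham 1 to 3 and at 0.74, 1.17 and -0.17 on ICH 1 to 3. ICH 3 thus lay within the sham range. P2rx7, from a probe near the limit of the array, stood at -0.48, -0.07 and 0.55 on sham 1 to 3 and at 0.76, 0.31 and -0.54 on ICH 1 to 3. Its difference was 0.18. Nek7, a partner of NLRP3, was higher on all 3 ICH arrays than on all sham arrays, by 0.57 ± 0.22 (SE; limma, adjusted p = 0.33). It was the 1 of 8 so placed, beside 11% of all rows. Il1b, the interleukin-1 beta gene, stood at 2.96, 4.40 and 0.01 on ICH 1 to 3 (2.46 ± 1.11 (SE); limma, adjusted p = 0.365), and the sensor gene Nlrp3, well above background on only 2 sham and 2 ICH arrays, at 1.12, 0.86 and -0.13 (0.62 ± 0.34 (SE); limma, adjusted p = 0.421). Without ICH 3, 6 of the 8 had an unadjusted p under 0.05, with a median of 0.94. The share of 6.14% is that of all 6 arrays, and more rows over the array were called without ICH 3. Without sham 1, ICH 1 or ICH 2 the median was 0.36, 0.40 or 0.31, and 0 of the 8 had such a p in any of these or without sham 3.

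Of 12 genes listed under adenosine receptor signalling, all tested, 2 were higher and 10 lower, with 0 called and a median of -0.28. Over all rows 45.9% were higher. At an unadjusted p under 0.05, 5 were lower, beside 8.58% of all rows. Dpp4 was lower by -1.27 ± 0.29 (SE; limma, adjusted p = 0.301). A second probe of Dpp4, of lower mean signal, was well above background on 3 sham arrays and 1 ICH array, and differed by -1.02. Adcy5, the main adenylyl cyclase of striatum, was lower by -0.91 ± 0.24 (SE; limma, adjusted p = 0.301) and Pde10a, a striatal phosphodiesterase, by -0.85 ± 0.28 (SE; limma, adjusted p = 0.304). With spike-in centring, which also raised the median of all rows, 9 of the 12 were higher and 3 lower. The list's median less that of all rows was -0.24 with it and without it. The 5 genes at an unadjusted p under 0.05 came to 2 without sham 1 or sham 2, to 3 without sham 3 or ICH 2 and with the replicate block, and to 0 with the slide row as a block.

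**Figure D4:**
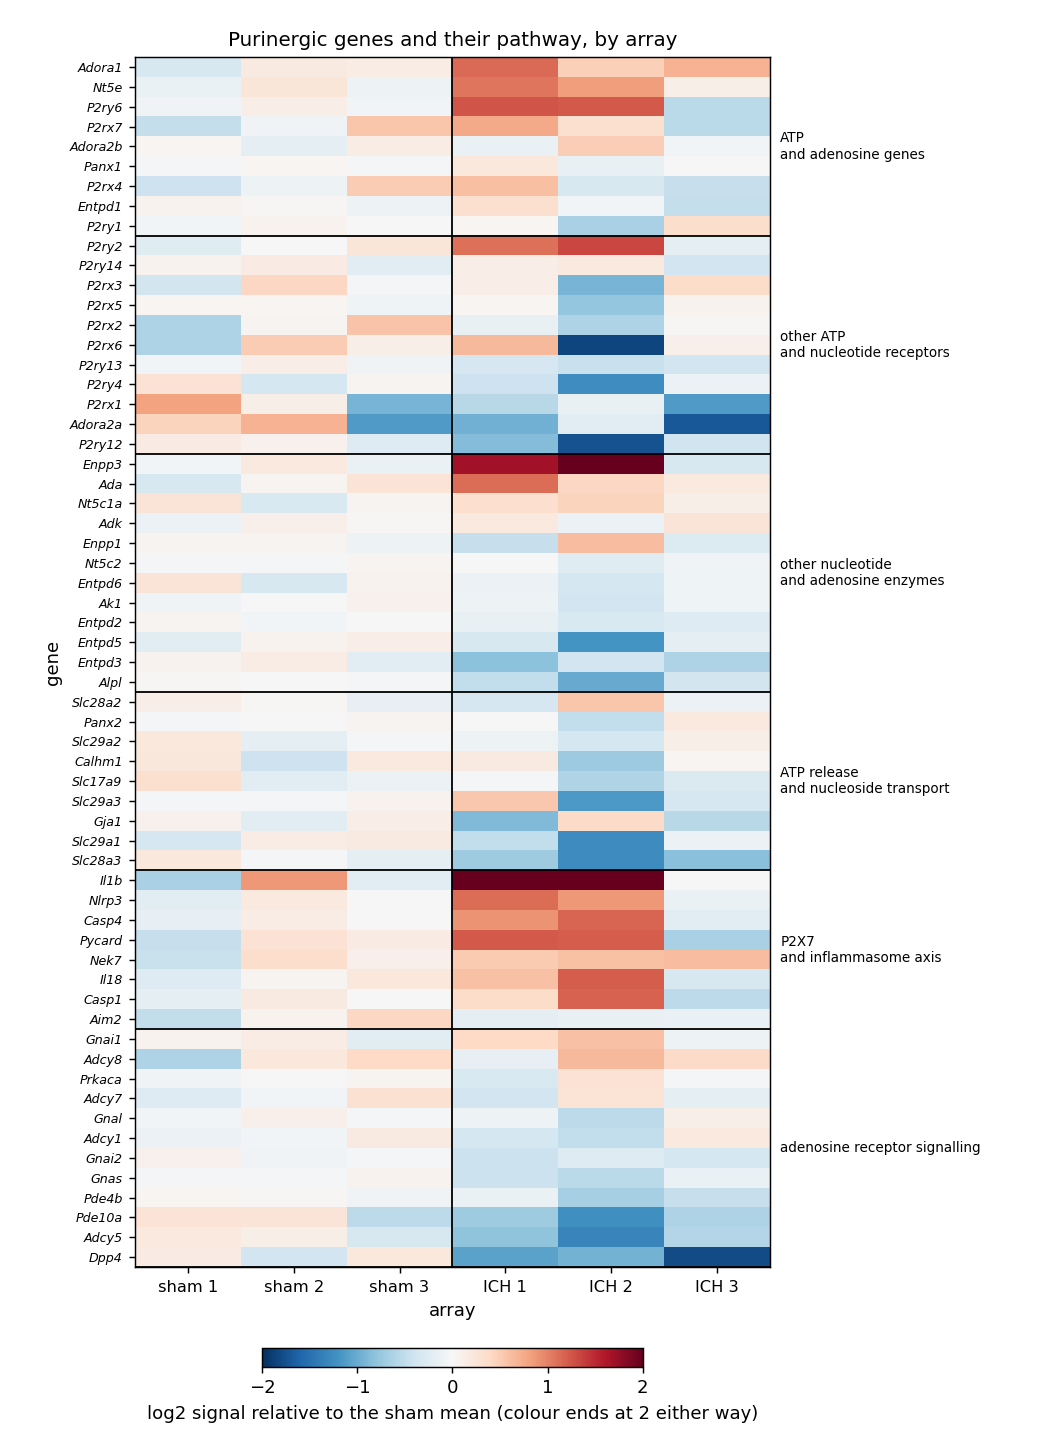
Log2 signal relative to the sham mean (colour, ends at 2 either way) of the 9 genes and the 52 other pathway genes tested, 1 row per gene and 1 column per array. The ICH 1 and ICH 2 columns are red for P2ry6, P2ry2, Il1b and Nlrp3 where ICH 3 is pale or blue, and Adora1 is red on all 3 ICH arrays.

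Marker lists of cell types were read beside these values. A rank by mean signal served only to choose which markers to name, and a summed level weights most the probes of strong signal. In bulk tissue, fewer cells of a type and less RNA per cell cannot be told apart. Of the markers of brain tissue, 9 of neurons, 9 of astrocytes and 10 of oligodendrocytes passed the filter on dim probes. Monocyte and macrophage markers were higher in 10 of 12, with medians of -0.28, 0.23 and 0.08 on the sham arrays and 1.64, 1.69 and -0.48 on ICH 1 to 3, with ICH 3 low as for P2ry6. Their summed level, in multiples of the 75th percentile, ranged from 4.60 to 6.21 in sham and from 4.08 to 11.5 in ICH. Lyz2, a lysozyme gene, differed by -0.44 ± 0.16 (SE; limma, adjusted p = 0.313), and Plac8 by 0.67 ± 0.90 (SE). Neutrophil markers were higher in 7 of 10 tested, with ICH medians of 2.21, 3.20 and -0.00 and a summed level of 0.155 to 0.323 in sham and 0.302 to 1.94 in ICH. S100a8 and Csf3r differed by 2.06 ± 1.03 and 1.49 ± 0.73 (SE), and Mmp8 and Cxcr2 did not pass the filter. Microglia markers were lower in 6 of 10, with ICH medians of -0.27, -0.31 and -0.38 and a summed level of 21.7 to 22.7 in sham and 17.7 to 20.3 in ICH, beside P2ry12 and P2ry13. The complement gene C1qa differed by -0.21 ± 0.14 (SE). With spike-in centring the microglia median was 0.15, and less the median of all rows it was -0.24 with it and without it. Whether these cells account for the values of P2ry6, P2ry12 or P2ry13 was not tested.

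The 10 striatal neuron markers were all lower, with medians of 0.32, 0.35 and -0.67 on the sham arrays and -0.88, -1.48 and -1.00 on the ICH arrays, beside Adora2a, Adcy5 and Pde10a. Ppp1r1b and Penk differed by -0.79 ± 0.33 and -1.01 ± 0.30 (SE), and the list's median was -0.52 with spike-in centring. Cortical neuron markers were higher in 7 of 8 tested, beside Adora1, whose ICH values relative to the sham mean were 1.13, 0.48 and 0.70. The medians of the cortical list were 0.35, -0.33 and 0.11 on the sham arrays and 0.54, 0.90 and 0.41 on the ICH arrays. Its median difference of 0.59 ran from 0.39 without sham 2 to 0.74 without sham 1 on leaving out 1 array. Nrgn and Neurod2 differed by 0.28 ± 0.18 and 0.90 ± 0.29 (SE), and Tbr1 did not pass the filter. The summed level ranged from 13.1 to 24.8 in sham and 7.62 to 11.5 in ICH for the striatal list, and from 5.01 to 8.06 and 9.05 to 9.91 for the cortical list. The part of these neurons in the Adora1 and Adora2a values was not tested. Among the other lists, the median difference was -0.31 for astrocytes, 0.21 for neurons, -0.21 for oligodendrocytes and -0.39 for endothelium. It was -0.38 for meninges and fibroblasts, 0.24 for erythroid cells and -0.13 for lymphocytes. With spike-in centring all 7 were above 0, as was the median of all rows. On leaving out 1 array the oligodendrocyte median ran from -0.41 without ICH 1 to 0.14 without ICH 2, and that of meninges and fibroblasts from -0.57 without sham 3 to -0.24 without ICH 3. The astrocyte median was -0.14 without ICH 2, and that of neurons 0.093 without ICH 3. The erythroid median ran from 0.036 without sham 2 to 0.54 without sham 1, and it was 1.36 when the probes of a gene were averaged. The lymphocyte median had no stable sign, at -0.80 and -0.70 without sham 1 and ICH 2 and at 0.36, 0.26 and 0.40 without sham 2, sham 3 and ICH 3.

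**Figure D5:**
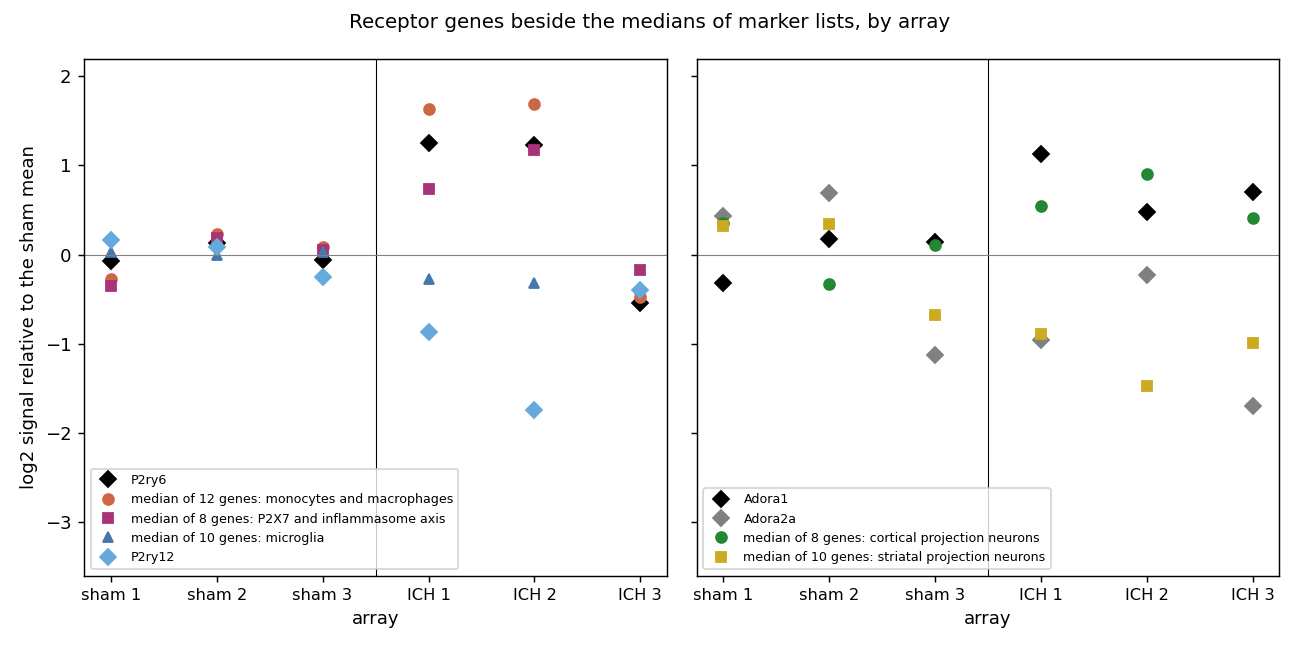
Left, P2ry6 and P2ry12 beside the medians of the monocyte and macrophage, inflammasome and microglia lists. Right, Adora1 and Adora2a beside the cortical and striatal neuron lists. All are log2 signal relative to the sham mean on each array. P2ry6 lies at 1.25, 1.23 and -0.54 on ICH 1 to 3, high and low on the same arrays as the monocyte list, and Adora1 lies above 0 on all 3.

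The genes with the most similar pattern over the 6 arrays were named for the 4 members that varied most, by Pearson's r over 12962 other genes. Clk2, Plp2 and Parp9 came nearest to P2ry6, at 0.998, 0.997 and 0.995, and 503 genes had r above 0.9. Nxph3, Pcbp4 and Myo1e came nearest to P2rx7, at 0.989, 0.980 and 0.965, with 40 genes above 0.9. Son, Gtf2f2 and Cenpn came nearest to Adora1, at 0.995, 0.994 and 0.993, with 397 above 0.9, and Nkiras2, Srd5a3 and Stra6l to Nt5e, at 0.994, 0.989 and 0.988, with 452 above 0.9. With 6 arrays in 2 groups such values are a description only.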

How the data were processed

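The intensity values of 6 arrays are background-subtracted and spatially detrended, per the file headers, which name Agilent Feature Extraction 11.5.1.1; the submitters' processing notes name version 10.7. The authors' deposited log2 values equal, within 0.001 for 100% of probes, the mean log2 intensity of a probe's spots less a constant per array, with population outlier spots left out. Per the file headers, flags of 0 or 1 mark spots as outliers or well above background.

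Control, non-uniform and population outlier spots were left out, the 75th percentile of an array was subtracted from its log2 intensity, and spots of a probe were averaged. Probes well above background, on at least 0.5 of their spots, on at least 3 of 6 arrays were kept; 4 with missing values were left out. Probe accessions were named through the RefSeq table of GRCr8: 18355 of 30367 probes had 1 symbol, 0 several and 12012 none. The probe with the highest mean stood for its gene.

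The test was that of limma 3.58.1 under R 4.3.3 (lmFit, eBayes, Benjamini-Hochberg over 22179 rows), tested on simulated data. Promoters were searched with Python 3.11.15 and pandas 2.3.3, and figures made with matplotlib 3.10.9. All arrays share 1 slide and 1 scan, the slide row differs only for ICH 2 and ICH 3, and 0 spots were saturated; 81.8% to 85.4% of spots were well above background. The number of arrays limits the precision.

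The members and lists were chosen with earlier results of these data known. Named were all members, per pathway list the 3 genes with the lowest unadjusted p (none was called), per cell type list its median and, for the 5 lists set beside a member, the 2 genes with the highest mean (1 gene that this names is not reported here), and the 3 genes nearest in pattern to each of the 4 members of largest SD. Alternatives were normexp (offset 50, on the median spot signal), quantile, median and spike-in centring, the deposited values, filters, marked spots kept, probe means, an intensity trend with robust variance, array weights, blocks for replicate number and slide row, and leaving out each array; keeping population outliers and recomputing the lists were added after the data were examined.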

Additional observations from a re-analysis of the deposited data

How the results depend on the processing

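Adora1, Nt5e and P2ry6 kept their direction under all 20 alternatives, at 0.59 to 1.20, 0.48 to 1.11 and 0.34 to 1.25, with adjusted p of 0.157 to 0.739, 0.117 to 0.739 and 0.0734 to 0.78, so 0 members were called under any. Rows called over the array, 0 as reported, came to 3 with normexp, 33 with spike-in centring, 2 with the filter on all 6 arrays, 3 with an intensity trend and robust variance, 6 with array weights and 0 to 36 on leaving out 1 array (8 without ICH 2, 36 without ICH 3), and to 0 under the others. Members at an unadjusted p under 0.05 came to 1 with the deposited values, without a filter and with the trend, and to 0 to 3 on leaving out 1 array (0 without sham 1, 3 without ICH 3). Spike-in centring shifted the median of all rows from -0.04 to 0.39 and gave 5023 rows higher and 183 lower at an unadjusted p under 0.05, and median centring gave 837 higher. The remaining genes had no stable sign. Panx1 came to -0.00046 with quantile normalization and -0.056 with median centring, and ran from -0.078 without ICH 1 to 0.10 on leaving out 1 array. P2rx4 came to 0.37 with spike-in centring, 0.60 with the slide row as a block, and 0.20, 0.071 and 0.14 without sham 3, ICH 2 and ICH 3 (-0.39 to 0.20 on leaving out 1 array). P2ry1 came to 0.34 with spike-in centring, 0.12 with array weights, 0.032 with the slide row and 0.19 without ICH 2 (-0.31 to 0.19), and Entpd1 to 0.36, 0.32 and 0.13 with spike-in centring, the slide row and without ICH 3 (-0.27 to 0.13). P2rx7 came to -0.10 with array weights and -0.059 and -0.11 without sham 1 and ICH 1 (-0.11 to 0.54), and Adora2b to -0.095, -0.14 and -0.094 with array weights, the slide row and without ICH 2 (-0.094 to 0.22). With spike-in centring P2ry13 came to 0.040, Slc17a9 to 0.13 and C1qa to 0.22, and Plac8 came to -0.080 with array weights. The cause was not tested. The slide row block leaves ICH 1 alone against sham. The replicate numbers do not pair the arrays (correlations -0.19, -0.0079 and 0.070, and 1 of 3 nearest its own number); with the replicate block 0 rows were called, and Adora1 had an unadjusted p of 0.0474 (adjusted p = 0.458, limma). P2rx7 was not tested with the filter on all 6 arrays.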

Other observations

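Enpp3, an ectoenzyme that cuts nucleotides and is named here after its values were seen, stood at -0.06, 0.20 and -0.14 relative to the sham mean on sham 1 to 3 and at 1.69, 2.02 and -0.32 on ICH 1 to 3. ICH 1 and ICH 2 were above and ICH 3 below all sham arrays, as for P2ry6, and the difference of 1.13 ± 0.61 (SE) was not called (limma, adjusted p = 0.416).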
